A study of Homo sapiens with 2 samples.

Results

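The integrated stress response and the unfolded protein response were examined in MDA-MB-231 cells, an established human triple-negative breast cancer line, after knockdown of the cyclin-dependent kinase gene CDK14. The 36 genes described here are a list of ATF4 targets, enzymes of serine and one-carbon metabolism, and folding and degradation genes of the endoplasmic reticulum (ER), listed by function, without chaperones of the HSP and DNAJ families. All 36 had a row in the deposited table, out of 29452 rows in all. The labels give 2 libraries of this line: 1 with a short hairpin RNA against CDK14 (CDK14-sh) and 1 with a scramble control. Whether the hairpin came from 1 construct or the cells from 1 clone is not given in the sources used here. With 1 library per group there is no replicate check and no test between the conditions. Words such as higher and lower therefore describe these 2 libraries only.

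Cells meet several kinds of stress through one shared step, the phosphorylation of the translation initiation factor eIF2. General protein synthesis then slows, while the mRNA of the transcription factor ATF4 is translated more, and ATF4 turns on genes of amino acid synthesis and transport. Unfolded proteins in the ER are sensed by PERK, which phosphorylates eIF2, by IRE1, which splices the XBP1 mRNA, and by ATF6, which is cleaved to an active factor. XBP1 and ATF6 raise ER chaperones, disulfide isomerases and the machinery that removes misfolded proteins. A gene-level mRNA measurement sees the transcripts of these targets. It sees neither eIF2 phosphorylation, ATF4 protein nor the spliced share of XBP1.

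The known binding elements of this response were present in the promoters of several of these genes, and they are shown first because the ER genes are compared by them below. Promoter windows of 300 bases, from 250 before to 50 after the annotated start, were taken from RefSeq (GRCh38.p14) and held 32 of the 36 genes. Both strands were searched for 4 elements. ERSE (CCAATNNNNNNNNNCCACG) and ERSE-II (ATTGGNCCACG) are the ER stress response elements through which ATF6 and XBP1 act. UPRE (TGACGTGG) is bound by XBP1 and ATF6, and CARE (TGATGNAA) is the composite C/EBP-ATF element read by ATF4. ERSE and ERSE-II share the letters CCACG, and UPRE can overlap the reverse complement of ERSE-II. Each site is printed on the strand of its gene with 5 bases on either side, and capitals mark the element or its reverse complement. The ERSE sites of CANX (chr5:179698773-179698801, plus strand), CALR (chr19:12938379-12938407, plus strand), PDIA6 (chr2:10812848-10812876, minus strand), CRELD2 (chr22:49918549-49918577, plus strand), ERO1B (chr1:236282178-236282206, minus strand) and XBP1 (chr22:28800598-28800626, minus strand) read as follows.
CANX: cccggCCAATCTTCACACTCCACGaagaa
CALR: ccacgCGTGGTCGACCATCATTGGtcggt
PDIA6: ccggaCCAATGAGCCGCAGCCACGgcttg
CRELD2: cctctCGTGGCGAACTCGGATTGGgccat
ERO1B: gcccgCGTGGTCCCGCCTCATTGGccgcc
XBP1: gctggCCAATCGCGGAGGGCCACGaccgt

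The ERSE-II sites of SDF2L1 (chr22:21642109-21642129, plus strand) and HERPUD1 (chr16:56932020-56932040, plus strand), and the CARE sites of ASNS (chr7:97872464-97872481, minus strand), CHAC1 (chr15:40953257-40953274, plus strand) and HERPUD1 (chr16:56931961-56931978, plus strand) read as follows.
SDF2L1: ggaagCGTGGACCAATcaaaa
HERPUD1, ERSE-II: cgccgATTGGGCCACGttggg
ASNS: aggcaTGATGAAActtcc
CHAC1: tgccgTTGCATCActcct
HERPUD1, CARE: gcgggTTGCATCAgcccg

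HYOU1 held 2 ERSE-II sites, and the one farther upstream overlapped a UPRE, so its whole window (chr11:119057156-119057455, minus strand) is printed with all 3 matches in capitals.
HYOU1: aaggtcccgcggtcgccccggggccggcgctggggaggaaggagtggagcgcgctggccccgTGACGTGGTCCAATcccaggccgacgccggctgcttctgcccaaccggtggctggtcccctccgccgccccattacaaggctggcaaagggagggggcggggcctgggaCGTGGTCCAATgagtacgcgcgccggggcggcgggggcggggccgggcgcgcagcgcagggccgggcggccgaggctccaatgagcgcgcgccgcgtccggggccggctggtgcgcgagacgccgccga

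**Figure D1:**
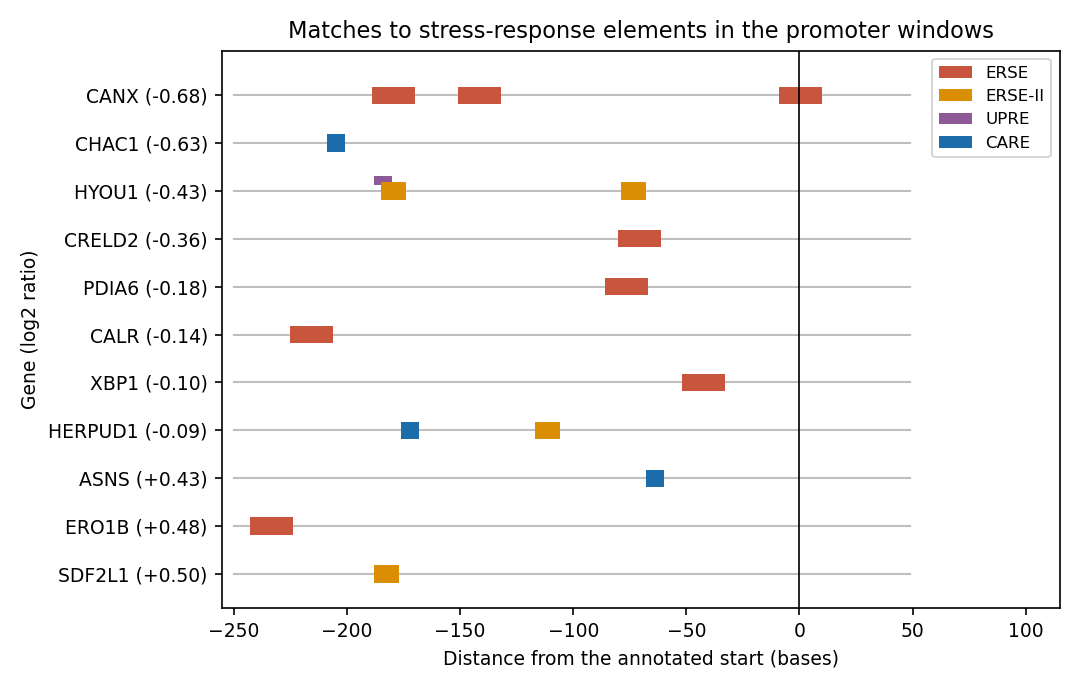
Position of each matched element relative to the annotated start (x axis, bases; grey lines span the window) for the 11 genes that held one, ordered by their log2 ratio of CDK14-sh over scramble, which stands in parentheses. The bars of CANX are 1 genomic site seen from 3 annotated starts, and HYOU1 shows its pair of ERSE-II sites with the overlapping UPRE.

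Levels are given in RPKM, reads per kilobase of summed exon length, scaled to the assigned reads of the library, so that they can be compared between genes. The libraries held 15478156 (CDK14-sh) and 17217564 (scramble) assigned reads. A fold is the ratio of RPKM between the libraries, with a 95% Clopper-Pearson interval from the recovered reads in parentheses, which covers counting error only. Log2 ratios, CDK14-sh over scramble, were computed after adding 0.1 RPKM to each level, and this understates the differences of low genes. A gene counted as measured from 1 RPKM in the higher library, and 14878 rows passed. CDK14 itself stood at 0.548 RPKM in CDK14-sh and 2.48 in the scramble library, 22.1% of the control (16.4% to 29.4%). The mesenchymal markers fixed for this line were all present (7 of 7, 36.1 to 279.6 RPKM over both libraries). Of the luminal markers 2 of 7 reached 1 RPKM. For other cell types, 2 of 4 leukocyte, 1 of 4 endothelial and 1 of 6 fibroblast markers with a row reached 1 RPKM. At 0 in both libraries were 0 leukocyte, 1 endothelial (VWF) and 2 fibroblast markers (DCN and LUM). Summed levels of the leukocyte list were 131.7 RPKM in CDK14-sh and 133.2 in scramble, of the endothelial list 1.65 and 1.86, and of the fibroblast list 2.05 and 1.69. A single leukocyte marker reached 127.9 RPKM, the highest value of that list over both libraries, and made up most of the sum there. The part of other cells in the results below was not tested.

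Of the 36 genes, 34 were measured and none passed 2-fold: 0 of 34 were at least 2-fold higher in CDK14-sh, against 3.21% of all measured genes, and 0 of 34 at least 2-fold lower, against 3.47%. At 1.5-fold, 2 of 34 were higher (TRIB3 and PSPH) and 1 of 34 was lower (CANX), against 9.11% and 9.55% of all measured genes. Many measured genes have few reads and scatter widely. Of the 13299 measured genes with at least 30 reads, 166 were at least 2-fold higher and 290 lower. When the only condition was 30 reads or more in either library, without the 1 RPKM rule, 6.99% of genes passed 1.5-fold upward and 8.07% downward. Of the 35 members in that set 2 were higher and 2 lower, CHAC1 being the second. Counts this small lay near the background shares in both directions, and no difference from those shares was shown. In bulk RNA, fewer cells of a kind and less RNA per cell cannot be told apart. The median log2 ratio of the 34 was 0.03, beside 0.04 over all measured genes, with 18 above 0 and 16 below. This sign depends on the scaling: the median of the same 34 was -0.12 in TPM, where the length-scaled levels of each library are set to the same total, and -0.01 with the median of all genes set to 0.

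Pooled after their values were seen, the factors, effectors and enzymes of the integrated stress response had 13 of 16 measured members above 0 (median 0.22). The sensors and the folding, degradation and translocon genes had 5 of 18 above 0 (median -0.09). Of all measured genes 8135 of 14878 lay above 0. These counts depend on the scaling. In TPM, PPP1R15A (-0.11), PHGDH (-0.03) and SHMT2 (-0.03) of the first pool and SEC61B (-0.13) of the second moved below 0. Without mitochondrial reads, DDIT4 (0.02) and MTHFD2 (0.02) of the first and ATF6 (0.04) and SYVN1 (0.01) of the second moved above 0.

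The counting intervals were narrow enough to separate small differences. Of the 34 measured members, 14 had an interval wholly above 1 and 9 wholly below, against 27.3% and 22.6% of all measured genes. The other 11 held 1. Intervals narrow with reads, and the measured members had at least 94 reads in the higher library. How much 2 cultures of one condition would differ was not measured here, so an interval away from 1 separates these libraries, not the conditions.

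**Figure D2:**
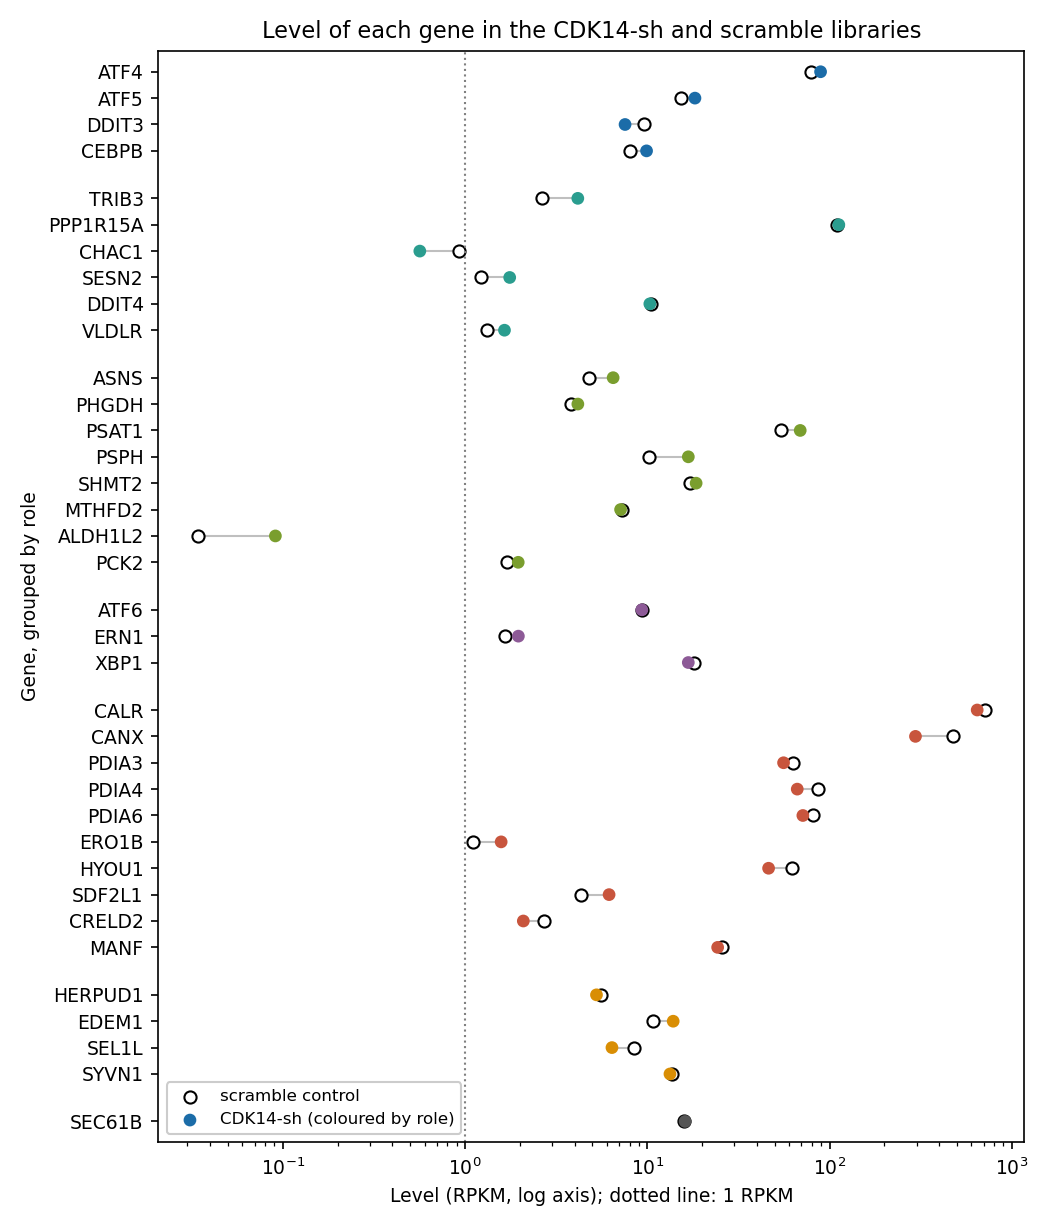
Level of each of the 36 genes in RPKM (log x axis) in CDK14-sh (filled, coloured by role) and scramble (open). Levels span from 0.0341 RPKM (ALDH1L2, scramble) to 712.6 RPKM (CALR, scramble), and within each gene the filled and open points lie close together compared with that span.

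**Figure D3:**
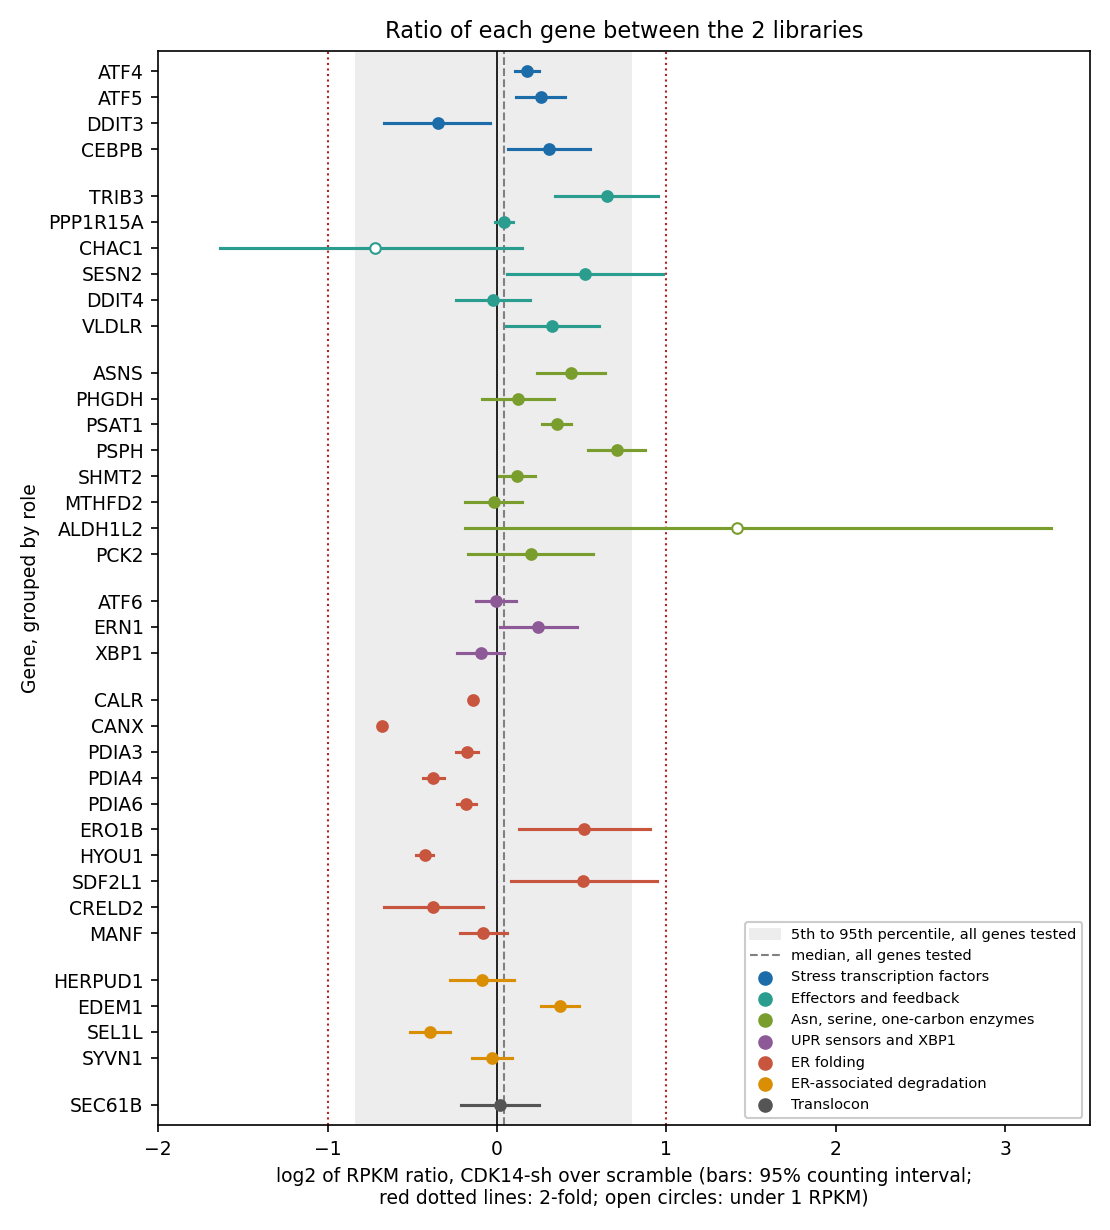
Log2 ratio of RPKM, CDK14-sh over scramble, for each gene (points) with its 95% counting interval (bars), on the plain ratio without the added 0.1. The grey band spans the 5th to 95th percentile of all measured genes (-0.83 to 0.79), computed with the added 0.1, unlike the points. It holds all measured members, and no filled point reaches the dotted 2-fold lines.

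The transcription factors that carry the stress signal differed by less than 1.3-fold, and not all in one direction. ATF4 stood at 89.3 RPKM in CDK14-sh and 78.9 in scramble, 1.13-fold higher (1.08 to 1.19). ATF5, an ATF4-related factor whose translation is controlled in a like manner, stood at 18.3 and 15.3 RPKM, 1.20-fold higher (1.08 to 1.32). CEBPB, encoding C/EBP beta, a dimer partner of these factors, stood at 9.91 and 8.02 RPKM, 1.24-fold higher (1.05 to 1.46). DDIT3, which encodes the pro-apoptotic factor CHOP, went the other way. It stood at 7.55 RPKM in CDK14-sh and 9.63 in scramble, 1.28-fold lower (1.03 to 1.59), on 148 and 210 reads. ATF4 was thus the most abundant of the 4 in both libraries and DDIT3 the only one lower in CDK14-sh. In TPM the log2 ratios of ATF4 (0.025) and ATF5 (0.10) lay below the counting intervals given here. The median log2 ratio of the 4 was 0.22 as deposited and 0.06 in TPM. Exons of DDIT3 overlap the row of MARS, those of ATF5 overlap IL4I1 and NUP62, and those of CEBPB overlap CEBPB-AS1. Reads in shared exons cannot be told apart here.

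Effectors and feedback genes downstream of ATF4 and CHOP had a median log2 ratio of 0.31 over 5 measured members. TRIB3, a pseudokinase that restrains ATF4 and CHOP, stood at 4.16 RPKM in CDK14-sh and 2.66 in scramble. This was 1.57-fold higher (1.27 to 1.93), the largest ratio of the group, from 221 and 157 reads. SESN2, encoding sestrin 2, an inhibitor of mTORC1 signalling, stood at 1.76 and 1.23 RPKM, 1.43-fold higher (1.04 to 1.97). VLDLR, a lipoprotein receptor gene induced through ATF4, stood at 1.65 and 1.31 RPKM, 1.25-fold higher (1.04 to 1.52). These 3 are low genes, and the more abundant members differed less. PPP1R15A encodes GADD34, the phosphatase subunit that reverses eIF2 phosphorylation, and stood at 112.4 and 109.2 RPKM, a ratio of 1.03 (0.992 to 1.07). DDIT4, encoding the mTORC1 inhibitor REDD1, stood at 10.3 and 10.5 RPKM, a ratio of 0.984 (0.846 to 1.14). CHAC1, which encodes a glutathione-degrading enzyme, was under 1 RPKM in both libraries (0.565 and 0.931), on 18 and 33 reads, and its ratio of 0.607 had an interval that held 1 (0.322 to 1.11). CHAC1 and TRIB3 are commonly read together as ATF4 and CHOP targets, and their ratios lay on opposite sides of 1. The group median was 0.01 over members of at least 5 RPKM. In TPM the same 5 genes had a median of 0.17, and 0.03 with CHAC1, which the filter admits on that scale.

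Enzymes of asparagine, serine and one-carbon metabolism lay mostly above 0, with 6 of 7 measured members higher in CDK14-sh and a median log2 ratio of 0.19. Serine is made from a glycolytic intermediate in 3 steps, by PHGDH, PSAT1 and PSPH. The last of these showed the largest ratio: PSPH stood at 16.8 RPKM in CDK14-sh and 10.3 in scramble, 1.63-fold higher (1.45 to 1.84), at the 93.6th percentile of all measured genes. The middle enzyme PSAT1 was the most abundant of the 3, at 69.0 and 54.1 RPKM, 1.28-fold higher (1.20 to 1.35). PHGDH, the first, stood at 4.16 and 3.82 RPKM, a ratio of 1.09 (0.939 to 1.26). The interval of PSPH thus overlapped neither of the other 2, while those of PSAT1 and PHGDH overlapped each other. PSPH spans 56011051 to 56051604 of chromosome 7 (GRCh38, minus strand) and overlaps no other row. It has a pseudogene row nearby, PSPHP1, which stood at 14.6 and 10.2 RPKM on 59 and 46 reads, so some reads may have been split between the copies.

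ASNS, the asparagine synthetase gene whose promoter holds the CARE site printed above, stood at 6.50 RPKM in CDK14-sh and 4.80 in scramble, 1.35-fold higher (1.18 to 1.56). Of the mitochondrial folate enzymes, SHMT2, which takes the one-carbon unit from serine, stood at 18.5 and 17.1 RPKM, a ratio of 1.09 (1.01 to 1.17). MTHFD2, the next step, stood at 7.14 and 7.24 RPKM, a ratio of 0.986 (0.876 to 1.11). PCK2, the mitochondrial phosphoenolpyruvate carboxykinase gene, stood at 1.96 and 1.71 RPKM, a ratio of 1.15 (0.889 to 1.48). ALDH1L2, the mitochondrial formyltetrahydrofolate dehydrogenase gene, had 12 and 5 reads and was not measured by the 1 RPKM rule. Its plain ratio of 2.67 had an interval that held 1 (0.875 to 9.67). In TPM the median of these enzymes was 0.05, and SHMT2 (-0.03) and PHGDH (-0.03) then lay below 0.

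Of the 3 members that sense ER stress or carry the signal to the nucleus, ERN1 was slightly higher in CDK14-sh, and the intervals of ATF6 and XBP1 held 1. ATF6 stood at 9.33 RPKM in CDK14-sh and 9.37 in scramble, a ratio of 0.996 (0.919 to 1.08). ERN1, encoding the kinase and ribonuclease IRE1 alpha, stood at 1.96 and 1.66 RPKM, 1.18-fold higher (1.01 to 1.39). XBP1, its substrate, stood at 16.8 and 18.0 RPKM, a ratio of 0.935 (0.850 to 1.03). PERK, encoded by EIF2AK3, is not among the 36 and is given with the eIF2 kinases.

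ER folding genes lay mostly on the lower side: 8 of 10 were below 0, with a median log2 ratio of -0.18 that stayed negative in every alternative that gave one (-0.33 in TPM to -0.08 over rows that overlap no other). CANX, encoding the membrane lectin chaperone calnexin, stood at 296.1 RPKM in CDK14-sh and 474.3 in scramble, on 28576 and 50917 reads. It was 1.60-fold lower (1.58 to 1.63), at the 7.51th percentile of all measured genes and the lowest of the measured members. CALR, its soluble partner calreticulin, was the most abundant member at 645.7 and 712.6 RPKM with a ratio of 0.906 (0.892 to 0.921). The 2 lectin chaperones thus differed from each other, with intervals far apart. CANX spans 179678628 to 179730925 of chromosome 5 (GRCh38, plus strand) and overlaps no other row, while CALR overlaps CTC-425F1.4.

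HYOU1, the nucleotide exchange factor of the ER chaperone BiP, stood at 46.3 RPKM in CDK14-sh and 62.3 in scramble, 1.34-fold lower (1.30 to 1.39). The disulfide isomerase genes PDIA3, PDIA4 and PDIA6 were lower by smaller amounts. PDIA4 stood at 66.5 and 86.2 RPKM, 1.30-fold lower (1.24 to 1.36), PDIA6 at 71.4 and 81.0 RPKM, 1.13-fold lower (1.09 to 1.18), and PDIA3 at 55.9 and 63.2 RPKM, 1.13-fold lower (1.08 to 1.18). PDIA3 serves glycoproteins together with calnexin and calreticulin. CRELD2, a secreted ER stress gene, stood at 2.09 and 2.71 RPKM, 1.30-fold lower (1.06 to 1.59), and MANF, a secreted stress-induced factor, at 24.3 and 25.7 RPKM, a ratio of 0.946 (0.859 to 1.04). Exons of HYOU1, PDIA3, PDIA6 and CRELD2 overlap other rows, and those of PDIA4 and MANF do not.

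Against this direction, 2 folding genes with low levels were higher in CDK14-sh. SDF2L1, a partner of ER J-domain proteins, stood at 6.17 RPKM in CDK14-sh and 4.33 in scramble, 1.42-fold higher (1.06 to 1.93), on 105 and 82 reads. ERO1B, an oxidase that recharges disulfide isomerases, stood at 1.58 and 1.11 RPKM, 1.43-fold higher (1.09 to 1.87), on 131 and 102 reads. By level, the 9 measured members with a mean of 30 RPKM or more had a median log2 ratio of -0.18 with 6 below 0. The 6 members under 3 RPKM had a median of 0.27 with 5 above 0. All measured genes in the same bands had medians of 0.06 and 0.05, so a like step with level was not seen over all genes. Each band mixes roles, since most of the abundant members are folding genes.

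As a share of reads, the folding genes differed more between the libraries than their median did. The 10 folding genes took 0.478% of assigned reads in CDK14-sh (0.475% to 0.481%) and 0.633% in scramble (0.629% to 0.637%). Without CANX the shares were 0.293% (0.291% to 0.296%) and 0.338% (0.335% to 0.340%), a difference close to that of the median. The 8 metabolic enzymes took 0.0383% (0.0373% to 0.0393%) and 0.0315% (0.0307% to 0.0323%). A share of reads also grows with transcript length, so it is compared here only between libraries.

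**Figure D4:**
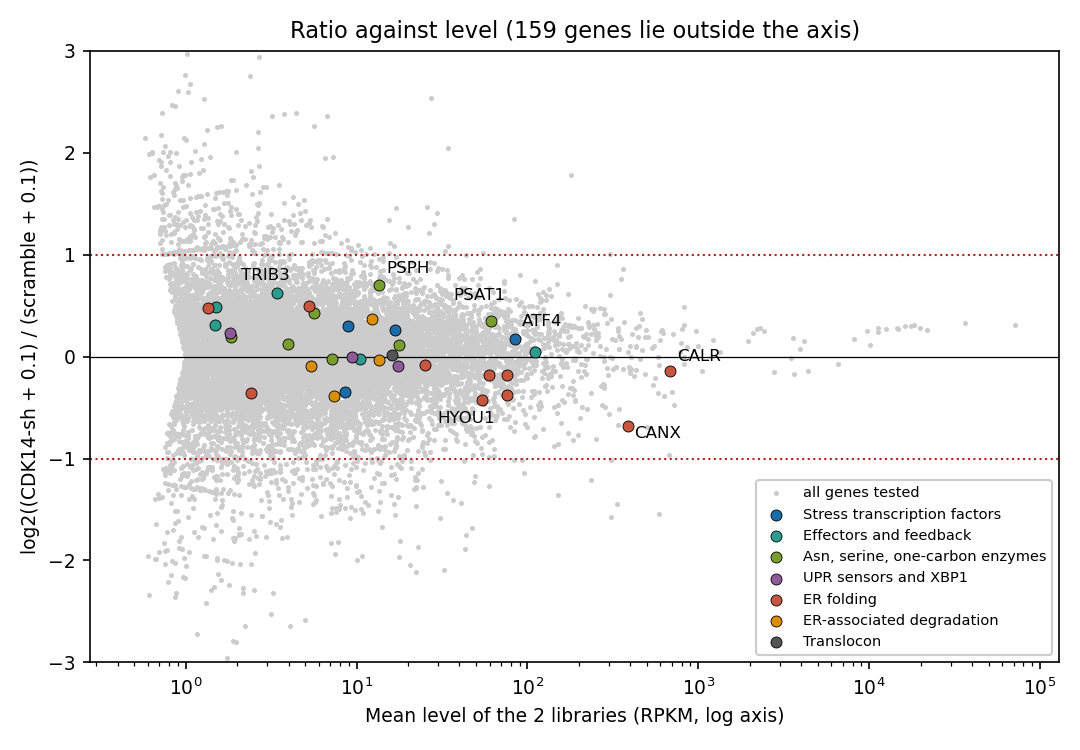
Log2 ratio, CDK14-sh over scramble with 0.1 RPKM added (y axis), against the mean RPKM of both libraries (log x axis) for all 14878 measured genes (grey, with 159 beyond the axis) and the 34 measured members (coloured by role). Folding genes such as CANX and HYOU1 lie to the right and below 0, while TRIB3, PSPH and PSAT1 lie above it.

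Genes of ER-associated degradation, which return misfolded proteins to the cytosol for the proteasome, went both ways. SEL1L and SYVN1 form the core of the HRD1 ubiquitin ligase. SEL1L, the scaffold, stood at 6.40 RPKM in CDK14-sh and 8.42 in scramble, 1.32-fold lower (1.21 to 1.43), while SYVN1, the ligase, stood at 13.3 and 13.6 RPKM, a ratio of 0.979 (0.903 to 1.06). EDEM1, which marks misfolded glycoproteins, stood at 13.9 and 10.7 RPKM, 1.29-fold higher (1.20 to 1.40). HERPUD1, which recruits the ligase complex, stood at 5.26 and 5.60 RPKM, a ratio of 0.940 (0.824 to 1.07). The translocon subunit gene SEC61B stood at 16.1 and 15.9 RPKM, a ratio of 1.01 (0.863 to 1.19). Exons of EDEM1 overlap RP11-572B2.1 and those of SYVN1 overlap FAU and MRPL49.

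Genes holding an ERSE lay mostly on the lower side, inside and outside the 36. The element occurred in 27 of 35116 RefSeq windows (0.0769%), where a gene can have several windows. Counted by gene, it occurred in 15 of the 8722 measured genes with a window and in 6 of the 32 members with one (18.8%). Of these 6 members, CANX, CALR, PDIA6, CRELD2 and XBP1 were below 0 and ERO1B was above. Of these 15 measured genes with an ERSE, 12 lay below 0, and the median log2 ratio of the 15 was -0.18. The 8707 measured genes whose windows held none had a median of 0.04. Of all measured genes, with or without a window, 45.3% lay below 0. Among the 12, the intervals of EIF2A (0.859 to 1.02), TMEM120A (0.635 to 1.32) and XBP1 (0.850 to 1.03) held 1. The count below 0 was also 12 of 15 in TPM, with the median set to 0 and without mitochondrial reads. Each of these settings shifts all ratios by one amount (-0.15, -0.04 and 0.04). The shifts are too small to change the sign of any carrier, so they are no separate check. No test was made on the count. The 9 carriers that were not members had a median of -0.26 with 7 below 0. They included HSPA5, which encodes BiP and stood at 251.0 RPKM in CDK14-sh and 311.2 in scramble, 1.24-fold lower (1.21 to 1.27). HSP90B1, which encodes GRP94, stood at 506.4 and 649.1 RPKM, 1.28-fold lower (1.26 to 1.30). FICD, encoding an enzyme that modifies BiP, stood at 1.80 and 2.63 RPKM, 1.46-fold lower (1.15 to 1.85). These 3 were picked after their values were seen, as was SYNPO, an actin-associated gene, which was the lowest carrier at 2.41-fold lower (2.11 to 2.77). Exons of CRELD2 overlap those of ALG12 (0.20), and exons of EIF2A (-0.09) overlap those of SERP1 (-0.26), so the carriers are not all separate observations.

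The other elements gave less one-sided counts. ERSE-II occurred in 0.0541% of windows and in 13 measured genes, 7 of them below 0, with a median of -0.03. That count was 10 in TPM and 5 without mitochondrial reads. HYOU1 (-0.43) and HERPUD1 (-0.09) lay below 0 and SDF2L1 (0.50) above. UPRE occurred in 0.729% of windows and in 105 measured genes, with 53 above and 52 below 0. CARE occurred in 3.62% of windows and in 230 measured genes, with a median of 0.03, close to the 0.04 of genes without it. A match is a run of letters and not a shown binding site, and windows without one say nothing of elements elsewhere.

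The wider pathway was read from 7 further lists, of which 137 genes had a row and 129 were measured. None of the 129 was at least 2-fold higher and 2 were at least 2-fold lower, beside 3.21% and 3.47% of all measured genes. At 1.5-fold the counts were 8 higher and 5 lower, beside 9.11% and 9.55% of all measured genes. Of the 13299 measured genes with at least 30 reads, 166 were at least 2-fold higher and 290 lower. At 1.5-fold 864 of them were higher and 1051 lower. At 1.5-fold and against that set, the upward count lay near the share and the downward count below it. The lists were chosen with earlier results of these data known, the counts are small, and no test was made on them. The eIF2 kinase genes lay on both sides of 1. EIF2AK3, encoding PERK, stood at 2.51 RPKM in CDK14-sh and 1.74 in scramble, 1.44-fold higher (1.17 to 1.78), and EIF2AK1, encoding the haem-regulated kinase HRI, at 26.6 and 21.9 RPKM, 1.21-fold higher (1.14 to 1.29). EIF2AK2, encoding the double-stranded RNA sensor PKR, stood at 13.3 and 18.5 RPKM, 1.39-fold lower (1.32 to 1.47). EIF2AK4, encoding the amino acid sensor GCN2, stood at 5.58 and 5.63 RPKM, a ratio of 0.990 (0.909 to 1.08). In the whole list of kinases, eIF2, eIF2B and phosphatase genes, 0 of 19 passed 2-fold and the median log2 ratio was 0.14.

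The other ATF4 targets spread more widely than the members, with 0 of 20 at least 2-fold higher, 1 lower, and a median of 0.03. The lower one was SLC7A5, encoding the large neutral amino acid transporter LAT1, at 19.1 RPKM in CDK14-sh and 48.5 in scramble, 2.54-fold lower (2.39 to 2.70). Its partner subunit SLC3A2 stood at 13.3 and 22.2 RPKM, 1.66-fold lower (1.54 to 1.79). Enzymes of proline synthesis were on the other side. ALDH18A1, which starts the route from glutamate, stood at 24.5 and 13.4 RPKM, 1.83-fold higher (1.68 to 1.99), and PYCR1, which completes it, at 12.2 and 6.84 RPKM, 1.78-fold higher (1.55 to 2.04). EIF4EBP1, encoding the translation repressor 4E-BP1, stood at 27.4 and 14.3 RPKM, 1.91-fold higher (1.64 to 2.23). SLC3A2, ALDH18A1, PYCR1 and EIF4EBP1 were picked after their values were seen. Genes regarded as ATF4 targets thus stood both above and below their scramble levels by more than any measured member did.

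Among 38 other folding and translocation genes, 1 was at least 2-fold lower, 0 higher, and the median was 0.04. KDELR3, a receptor that returns ER proteins from the Golgi, stood at 1.17 RPKM in CDK14-sh and 2.80 in scramble, 2.39-fold lower (1.60 to 3.63), on 35 and 93 reads, and its exons overlap DDX17. Picked after seeing the values, SSR3 (22.9 and 43.1 RPKM, 1.88-fold lower) and TRAM1 (37.4 and 69.8 RPKM, 1.87-fold lower) belong to the translocation machinery beside SEC61B, whose ratio was 1.01. SRPRB, a subunit of the signal recognition particle receptor and picked in the same way, was 1.67-fold higher. No member of the 25 measured degradation genes, the 10 other regulators, the 10 serine and folate genes or the 7 chaperones of the HSP and DNAJ families passed 2-fold, with medians of 0.06, 0.11, -0.18 and 0.006.

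**Figure D5:**
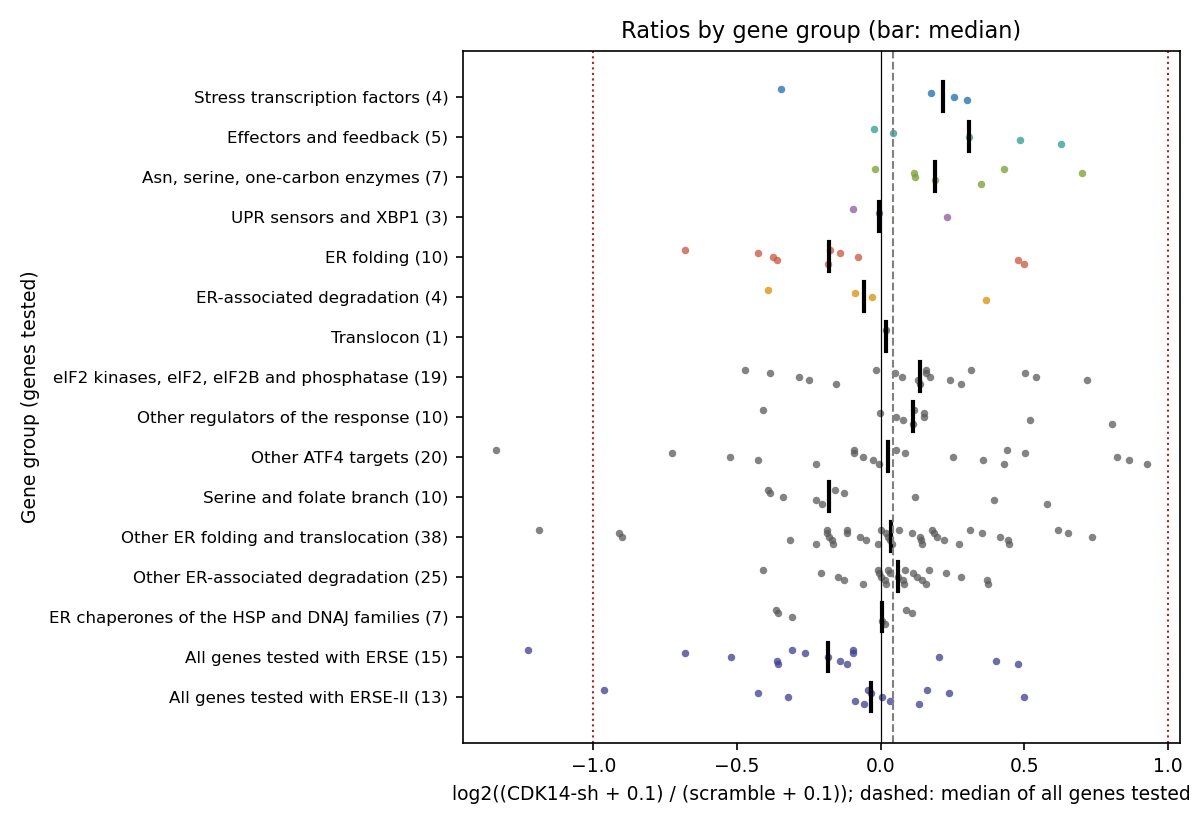
Log2 ratios of measured genes (points, spread vertically for clarity) by role group of the members, by further pathway list (grey) and for all measured genes holding an ERSE or ERSE-II, with the number of genes in parentheses and black bars at the medians. Role groups of the stress factors, effectors and enzymes have medians of 0.19 to 0.31 and ER folding one of -0.18, and the widest spreads belong to the other ATF4 targets and the other folding and translocation genes.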

How the data were processed

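RNA of MDA-MB-231 cells was made into stranded mRNA libraries, per the labels' protocols. The authors deposited RPKM values and summed exon lengths for 29452 gene rows, of which 27 had names turned into dates. Of tools and builds, the submitters' processing notes list Subread 1.5.1, featureCounts, Bowtie 0.12.2, mm8 and GRCh38, with no roles, and the sources used here do not give the counting options. Start and end of 34 of the 36 members equal those of GENCODE v29 on GRCh38. All nonzero RPKM values, once multiplied by length, fell within 0.01 read of a whole number of reads (100%), so reads were recovered. Exons of 15 members overlap another row.

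Members and lists were chosen with earlier results of these data known. By the rule for naming, all 36 members were covered, and of the other pathway genes those past 2-fold and the eIF2 kinases. Settings were 0.1 RPKM added, at least 1 RPKM in the higher library, and 2-fold. Tried as alternatives were other added values, level filters and thresholds, TPM, centring, totals without mitochondrial genes, and rows without overlaps (10 planned). Another 3, protein-coding rows, members without the 3' UTR words, and TPM over the same members, were chosen after seeing the data. PCR copies are not independent molecules. Ratios, intervals and the element search were tested on simulated data. Of 141 further pathway genes, 137 matched a row by current or older symbol. The tools were matplotlib 3.10.9, scipy 1.17.1, pandas 2.3.3, numpy 2.4.6 and Python 3.11.15.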

Additional observations from a re-analysis of the deposited data

How the results depend on the processing

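No paired analysis was possible because the labels give 1 library a group, and for the same reason leaving out replicates was not run. The counts of members at least 2-fold higher and lower were 0 in each alternative with that threshold, and 2 and 1 at 1.5-fold. ALDH1L2 had a plain ratio of 2.67 (0.875 to 9.67). It entered only without a level filter, where its log2 ratio with 0.1 RPKM added was 0.51, so no alternative could count it. TPM shifts every ratio by about -0.15, and the median of the members was then -0.13 with CHAC1 admitted by the filter and -0.12 without it. The median of effectors and feedback genes (0.31) was 0.0094 with at least 5 RPKM, 0.17 in TPM over the same 5 genes, 0.0291 in TPM with CHAC1, and 0.49 over rows overlapping no other. That of the enzymes (0.19) was 0.35 both with at least 5 RPKM and over rows overlapping no other, and that of degradation genes (-0.06) was -0.24 over such rows, where fewer members entered. Alternatives gave 318 ratios of single members, of which 297 lay inside the counting interval and 21 outside. Alternatives that only drop rows leave each ratio as it was, so the 297 are in large part no check. Most of the 21 came from TPM, and the rest were CALR and CANX with centring or without mitochondrial genes. The sign was opposite in 10 ratios, each of a member within 0.25 of 0. Leaving out members with a leading 3' UTR word moved no median by more than its tolerance of 0.16.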

Other observations

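Among 15634 words of 7 bases found in the 3' untranslated regions (UTRs) of at least 100 measured protein-coding genes, GTCATGC had the lowest mean log2 ratio relative to genes without it (-0.27 against 0.02, 658 genes). ATCCATA came next, followed by TCATGCA and then by TCTCGTA. These very ratios chose the words, so what follows is a description. At least 1 of the 4 words occurred in 7 of the 34 measured members (20.6%), close to the 21.0% of 10359 measured protein-coding genes, and in 53.1% of the 224 protein-coding genes at least 2-fold lower. CANX was the only measured member with GTCATGC, and it was also the lowest measured member (-0.68). The site lies at chr5:179730541-179730563 on the plus strand of GRCh38 and is printed with the word in capitals, from GENCODE v29.
CANX: cagtatatGTCATGCctcacttt

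The members with another of these words lay on both sides of 0. ATF6 (-0.01), MTHFD2 (-0.02) and SEL1L (-0.39) lay below, and ERN1 (0.23), VLDLR (0.31) and ERO1B (0.48) above. ALDH1L2, which also holds GTCATGC, had 12 and 5 reads and was not measured. PDIA4, HYOU1 and CRELD2, the next lowest folding genes, held none of the 4. The part of these words in the level of CANX was not tested.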
